A study of Mus musculus with 12 samples.

Results

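The 9 genes described here were Mitf, Nfatc1, Tnfrsf11a, Itgb3, Dcstamp, Ocstamp, Atp6v0d2, Ctsk and Acp5, out of 35275 genes in the count files. They encode factors, receptors, fusion proteins and resorption enzymes of the osteoclast, some of which also act when macrophages join into giant cells. The genes were chosen by function with earlier results of these data known, and the low level of Ctsk with MNA was among those results. RNA was sequenced from wildtype mouse bone marrow-derived macrophages (BMDMs) in 3 groups of 4 libraries, which carry the replicate numbers 1 to 4 (DMSO 2 is DMSO replicate 2). In every group, marrow cells were cultured over 6 days in the presence of M-CSF and IL-4, each at 20 ng/ml, and of IL-10 at 10 ng/ml, cytokines that steer macrophages toward an M2 state. DMSO was the solvent control, olaparib is a PARP inhibitor, and MNA is methyl-nicotinamide, a derivative of NAD, and the doses in these cultures are not given in the sources used here. Donors were 6 to 10 weeks old and of either sex by the study's methods, which do not name their strain for these libraries. The comparisons ask how each treatment changes gene expression while the macrophages differentiate.

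An osteoclast forms when precursors of the macrophage lineage receive M-CSF and the ligand of RANK, the receptor that Tnfrsf11a encodes. RANK signals through kinases, NF-κB and AP-1, and calcium signals from ITAM adaptors add to it, until the factor NFATc1 switches on the genes of the mature cell together with MITF and PU.1. The precursors then fuse with the help of the membrane proteins DC-STAMP and OC-STAMP, attach to bone through the integrin that holds the β3 subunit, secrete acid with a V-ATPase, and digest matrix with cathepsin K. IL-4 makes macrophages fuse into giant cells that also use DC-STAMP but do not dissolve bone.

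Transcripts of 2 osteoclast receptors were near 0 in these cultures. Calcr, the calcitonin receptor, averaged 0 CPM (counts scaled to library size) with DMSO, 0.00871 with olaparib and 0.0612 with MNA, and Oscar, an osteoclast receptor, averaged 0.0342, 0.0526 and 0.0514 CPM. Tnfsf11, the ligand of RANK, averaged 0 CPM with DMSO and at most 0.0297 CPM in the treated groups, and no RANK ligand was among the cytokines added. The members Ctsk, Acp5, Dcstamp and Ocstamp, listed with Calcr and Oscar as osteoclast markers, averaged 330, 347, 194 and 179 CPM with DMSO. Other genes that osteoclasts use were present, among them Tcirg1, a V-ATPase subunit, at 1172 CPM with DMSO, and Car2, carbonic anhydrase 2, at 133 CPM, which other cells express too. The 9 genes are therefore called fusion and osteoclast-associated genes, and no cell type is named from them.

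Libraries held 21146291 to 31446849 counts on genes, and the smallest count of a member was 233 (Ctsk, MNA replicate 1). On the first principal component of all 12849 tested genes, which held 49.8% of the variance, MNA replicate 2 lay at -36.0, inside the DMSO range of -43.7 to -33.6, while the other MNA libraries lay at 59.9 to 63.4. The fit of 12 libraries retained it under its MNA label, and values without it are also given. The 6 macrophage markers summed to 3430 to 4400 CPM with DMSO, 7680 to 9250 with olaparib and 3120 to 5670 with MNA. The lowest MNA sum was that of MNA replicate 2. Of these 6 markers, 1 averaged under 1 CPM with DMSO and 1 with MNA, and 0 with olaparib. The 4 IL-4 response markers summed to 32900 to 53300, 18800 to 30300 and 942 to 31700 CPM, the last being MNA replicate 2. The 7 neutrophil markers reached at most 7.78, 3.81 and 50.3 CPM in the 3 groups, with Ly6g averaging 0 with DMSO and olaparib and 0.131 CPM with MNA. The 4 erythroid markers reached 3.70, 0.210 and 54.4 CPM, and the 4 T and NK cell markers reached 3.55, 17.8 and 4.94 CPM. Dendritic cell markers stayed at or under 26.4 CPM, stromal and osteoblast markers at or under 21.1, mast cell and basophil markers at or under 9.86, and B cell markers at or under 3.47. The part of these markers in the members' changes was not tested. Fewer cells of a type and less RNA per cell cannot be told apart in such bulk samples.

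The starts of the 2 resorption enzyme genes are shown because Ctsk and Acp5, which encode enzymes of the same cell, had different patterns below. Each sequence runs from 250 bases before to 50 bases after a transcription start in RefSeq (GRCm38.p6), 5′ to 3′ along the gene. Ctsk has 1 start in that table (chr3:95498960-95499259, + strand), and Acp5 has 3 (chr9:22135697-22135996, chr9:22131816-22132115 and chr9:22130549-22130848, − strand). Capitals mark, on either strand, the NFAT core GGAAA, the PU.1 core GAGGAA, the E-box CATGTG that MITF family members bind, the palindromic E-box CACGTG, or the AP-1 site TGANTCA.
Ctsk: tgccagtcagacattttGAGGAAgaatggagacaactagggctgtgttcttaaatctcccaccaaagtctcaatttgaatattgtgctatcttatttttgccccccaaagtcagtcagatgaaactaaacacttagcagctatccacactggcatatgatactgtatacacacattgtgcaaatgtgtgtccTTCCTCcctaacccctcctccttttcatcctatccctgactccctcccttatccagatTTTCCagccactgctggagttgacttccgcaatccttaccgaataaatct
Acp5 start 1: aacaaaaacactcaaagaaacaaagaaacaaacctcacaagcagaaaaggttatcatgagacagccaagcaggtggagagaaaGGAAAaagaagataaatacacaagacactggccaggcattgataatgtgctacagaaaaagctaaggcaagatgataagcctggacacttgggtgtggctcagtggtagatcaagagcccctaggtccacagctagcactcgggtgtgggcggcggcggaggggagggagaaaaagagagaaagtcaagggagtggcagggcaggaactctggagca
Acp5 start 2: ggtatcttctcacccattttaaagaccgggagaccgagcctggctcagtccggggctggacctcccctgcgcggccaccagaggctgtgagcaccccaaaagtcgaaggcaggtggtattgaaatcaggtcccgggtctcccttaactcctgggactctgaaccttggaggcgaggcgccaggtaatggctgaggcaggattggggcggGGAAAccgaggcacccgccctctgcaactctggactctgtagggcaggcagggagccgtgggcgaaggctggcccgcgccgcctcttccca
Acp5 start 3: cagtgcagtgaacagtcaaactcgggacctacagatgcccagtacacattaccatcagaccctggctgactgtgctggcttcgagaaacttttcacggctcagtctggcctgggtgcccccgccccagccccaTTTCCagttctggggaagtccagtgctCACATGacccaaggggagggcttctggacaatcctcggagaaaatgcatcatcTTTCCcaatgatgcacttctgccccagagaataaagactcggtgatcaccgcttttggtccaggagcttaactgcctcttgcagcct

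The Ctsk window held 2 copies of GAGGAA, beginning at positions -233 and -58 from the start, and 1 of GGAAA at position 1. The third Acp5 window held CATGTG at -90 and GGAAA at -117 and -37, whereas the first and second held 1 GGAAA each, at -167 and -41. Of 32851 promoter windows of this length, 28.3% held GAGGAA, 61.3% GGAAA, 14.2% CATGTG, 7.15% CACGTG and 7.81% TGANTCA. The general E-box CANNTG, which includes CATGTG and CACGTG and was not put in capitals, occurred 3 times in the Ctsk window and in 72.3% of all windows. GAGGAA and GGAAA can overlap. Of the 9 members, 4 have a window in the table, and the others are Tnfrsf11a, with 2 CANNTG and none of the other motifs, and Mitf, with 3 windows of which 2 held 1 GGAAA. A match in letters does not show that a factor binds.

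Per length, the members spanned a wide range of levels in DMSO. Atp6v0d2 led with 684 RPKM (reads scaled to exon length and library size), followed by Ctsk at 218, Acp5 at 171, Itgb3 at 162, Dcstamp at 72.7, Ocstamp at 49.1, Mitf at 25.4, Nfatc1 at 3.24 and Tnfrsf11a at 2.90 RPKM. The libraries of Ctsk and Acp5 overlapped, as did those of Acp5 and Itgb3, Dcstamp and Ocstamp, and Nfatc1 and Tnfrsf11a. With olaparib, Ctsk averaged 118 RPKM, Dcstamp 195 and Ocstamp 109. In MNA replicates 1, 3 and 4, Ctsk averaged 8.32 RPKM, below Mitf at 27.5, while Dcstamp averaged 249 and Ocstamp 182 RPKM.

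**Figure D1:**
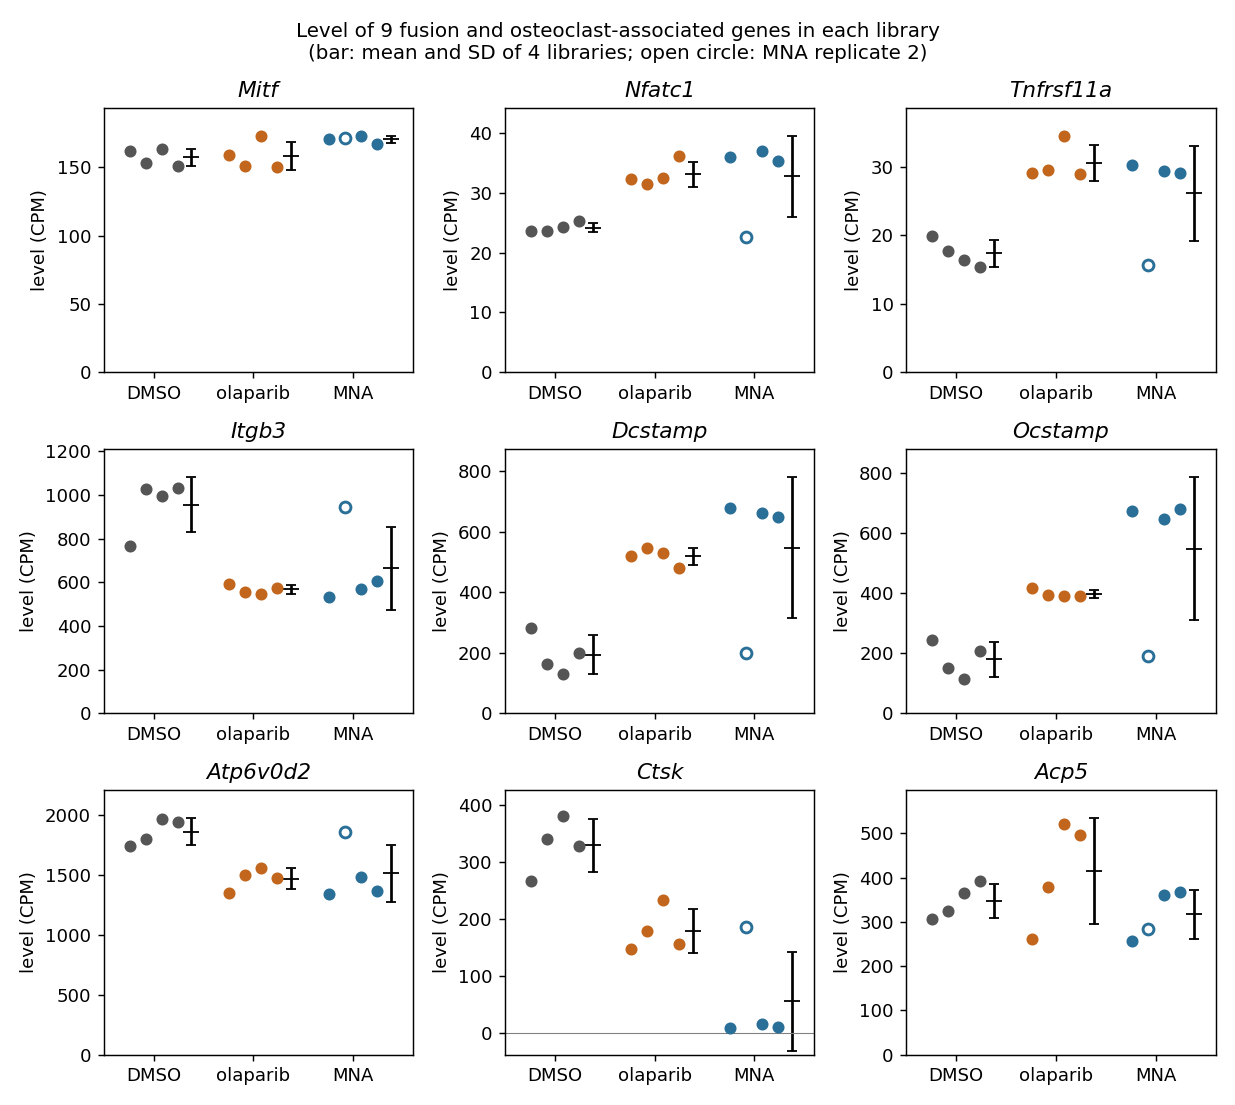
Level of each gene in CPM on the y axis for the 4 libraries of each group on the x axis, with the mean and SD of the 4 beside them and MNA replicate 2 as an open circle. MNA replicate 2 sits within or near the DMSO libraries for Nfatc1, Tnfrsf11a, Itgb3, Dcstamp, Ocstamp and Atp6v0d2, and for Ctsk its 187 CPM lies among the olaparib libraries.

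With olaparib, the fusion genes Dcstamp and Ocstamp and the regulators Tnfrsf11a and Nfatc1 rose, and Itgb3 and Atp6v0d2 fell. That is 4 of 9 members called higher and 2 called lower at an adjusted p under 0.05, where 14.3% of all tested genes were called higher and 12.8% lower. Because the genes were chosen with earlier results of these data known, members' counts and p-values are not independent support in any comparison. The 4 olaparib libraries lay above all 4 DMSO libraries for 4 members and below them for 3, where 20.7% and 20.3% of tested genes did so. The median log2 fold change of the 9 was 0.25, and that of all tested genes was 0.00. The tests are those of edgeR's quasi-likelihood fit over all genes, with Benjamini-Hochberg adjustment, and levels are CPM scaled by TMM, a normalization to a common library size. MNA replicate 2 is in this fit, and its spread enters the test of olaparib against DMSO too. The common dispersion, a measure of that spread, was 0.0333 with it and 0.0123 without it. Fits below that leave out a different library still hold MNA replicate 2.

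With MNA, the same 4 members were called higher, and Itgb3, Atp6v0d2 and Ctsk were called lower, where 16.3% of tested genes were called higher and 12.3% lower. In a fit of MNA and DMSO alone, edgeR called 0 of the 9 (lowest adjusted p = 0.0640), and 7 had an unadjusted p under 0.05. Ctsk is a description here, since its fall in this comparison was known when the genes were chosen. Because of replicate 2, MNA libraries lay apart from DMSO for only 1 member on the high side (Mitf, not called) and 1 on the low side (Ctsk), where 6.24% and 6.12% of tested genes did. Without that library they lay above DMSO for 5 members and below it for 3, where 27.2% and 26.9% of tested genes did. The median log2 fold change of the members was 0.12 with all 4 MNA libraries and 0.11 without replicate 2, and those of all tested genes were 0.00 and -0.00. The olaparib and MNA comparisons share the DMSO libraries, so their values below stand side by side and are not independent.

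**Figure D2:**
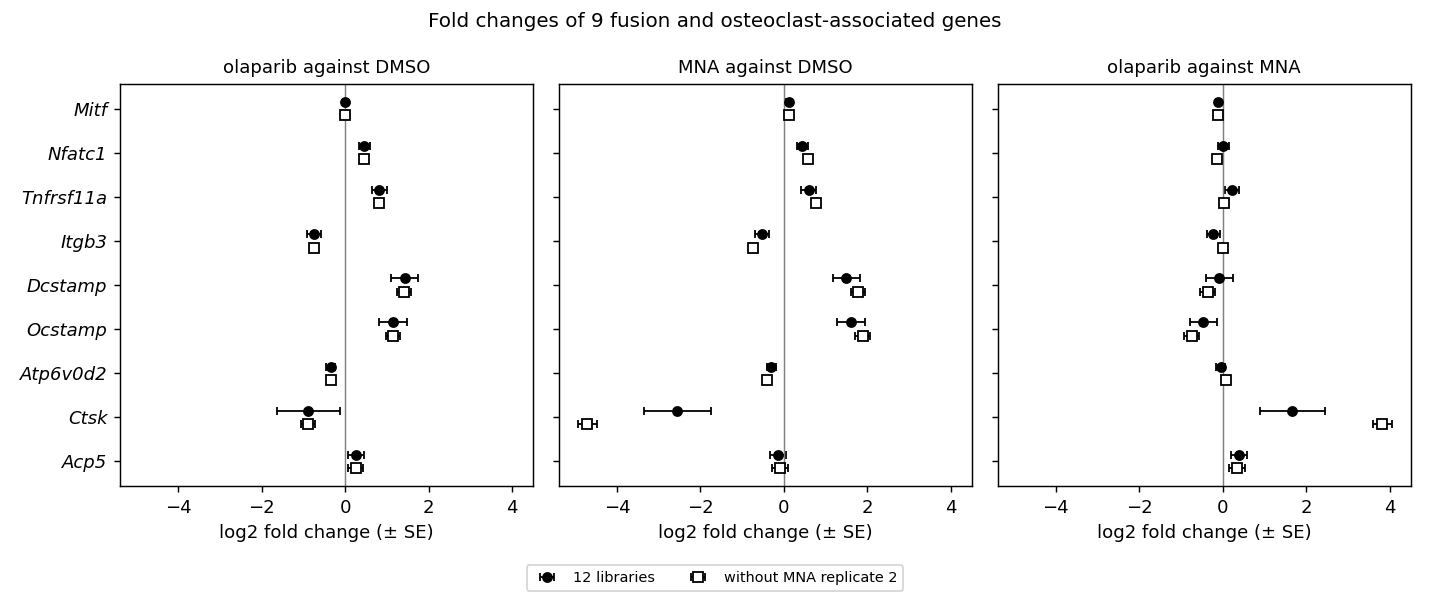
Log2 fold change (x axis, on 1 scale in the 3 panels) of each gene (y axis) with its standard error, from all 12 libraries (filled circles) and without MNA replicate 2 (open squares). Dcstamp and Ocstamp lie to the right of 0 and Itgb3 and Atp6v0d2 to the left in both comparisons with DMSO, and the value of Ctsk for MNA moves from -2.55 to -4.71 when MNA replicate 2 is left out.

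Mitf encodes a factor of the MITF/TFE family that binds E-boxes in osteoclast genes (ENSMUSG00000035158, chromosome 6, 97807052 to 98021349, GRCm38). Its level was 162, 153, 163 and 151 CPM in the DMSO libraries, 159, 151, 173 and 150.3 with olaparib and 171, 171, 173 and 167 with MNA. Olaparib and DMSO overlapped, and the log2 fold change was 0.01 ± 0.06 (SE, adjusted p = 0.925). All 4 MNA libraries lay above DMSO by a narrow margin, with a log2 fold change of 0.12 ± 0.06 that did not pass the test (adjusted p = 0.131). Mitf had the smallest spread of the 9 genes over the 12 libraries, a root mean square of 0.08 on the log2 scale against 1.90 for Ctsk.

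Nfatc1 encodes the calcium-regulated factor that is needed for osteoclast formation (ENSMUSG00000033016, chromosome 18, 80606205 to 80713071). It measured 23.6, 23.6, 24.3 and 25.2 CPM with DMSO, 32.4, 31.6, 32.6 and 36.3 with olaparib, and 36.1, 22.7, 37.1 and 35.4 with MNA. Every treated library except MNA replicate 2 lay above all DMSO libraries. Nfatc1 rose 1.37-fold with olaparib (log2 0.46 ± 0.13, adjusted p = 0.0221) and 1.35-fold with MNA (0.44 ± 0.13, adjusted p = 0.0289). The olaparib call was lost on removal of DMSO 2 or 3 or olaparib 4 (adjusted p = 0.0521 to 0.0680), and the MNA call without any DMSO library or MNA replicate 1, 3 or 4 (0.0564 to 0.0901). For olaparib the adjusted p was 0.000136 in a fit of 2 groups alone and 4.05e-05 without MNA replicate 2. In the 3 other MNA libraries the mean was 36.2 ± 0.875 CPM (SD, n = 3).

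The receptor RANK is the product of Tnfrsf11a (ENSMUSG00000026321, chromosome 1, 105780718 to 105847981). Its transcript stood at 19.97, 17.8, 16.3 and 15.4 CPM with DMSO, 29.1, 29.6, 34.5 and 29.0 with olaparib, and 30.4, 15.7, 29.4 and 29.1 with MNA. Again all treated libraries but MNA replicate 2 were above DMSO. It rose 1.76-fold with olaparib (log2 0.82 ± 0.18, adjusted p = 0.00648), a call kept when any library was left out. The rise with MNA was 1.51-fold (0.59 ± 0.18, adjusted p = 0.0300), which was lost on removal of DMSO 2, 3 or 4 or MNA 1, 3 or 4 (0.0636 to 0.0888). Over MNA replicates 1, 3 and 4 the log2 fold change was 0.77. Nfatc1 and Tnfrsf11a had a root mean square difference of 0.21 in centred log2 CPM over the 12 libraries. Their own spreads on this measure were 0.27 and 0.42.

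Itgb3 encodes the integrin β3 subunit, which with αV binds matrix proteins at the sealing zone (ENSMUSG00000020689, chromosome 11, 104608000 to 104670476). It moved against the receptor RANK. DMSO libraries held 768, 1027, 996 and 1031 CPM, olaparib libraries 594, 558, 548 and 574, and MNA libraries 531, 946, 572 and 605. It fell 1.68-fold with olaparib (log2 -0.75 ± 0.16, adjusted p = 0.00678), with no overlap of the groups and with the call kept when any library was left out. With MNA it fell 1.44-fold (-0.53 ± 0.16, adjusted p = 0.0338), and this was lost on removal of DMSO 2, 3 or 4 or MNA 1, 3 or 4 (0.0758 to 0.0980). Without MNA replicate 2 the MNA mean was 569 ± 36.9 CPM, beside 569 ± 20.2 with olaparib. DMSO replicate 1 lay well below the 3 other controls. Its partner Itgav passed neither test, with log2 fold changes of -0.02 with olaparib and 0.14 with MNA.

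Dcstamp, for the fusion protein DC-STAMP, had the largest rise of any member with olaparib (ENSMUSG00000022303, chromosome 15, 39745930 to 39760938). The DMSO libraries held 282, 164, 130.2 and 198 CPM, the olaparib libraries 520.1, 545, 531 and 480.4, and the MNA libraries 678, 198, 663 and 649.8. The lowest olaparib library was above the highest DMSO library, while MNA replicate 2 lay inside the DMSO range. Dcstamp rose 2.68-fold with olaparib (log2 1.42 ± 0.33, adjusted p = 0.00953), and the call was kept without any library. With MNA it rose 2.83-fold (1.50 ± 0.33, adjusted p = 0.0154), a call that was lost on removal of MNA 3 or 4 (0.0512 and 0.0535). MNA replicates 1, 3 and 4 averaged 663 ± 14.0 CPM, which is 3.42-fold the DMSO level.

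Ocstamp, for the related protein OC-STAMP, followed the same course (ENSMUSG00000027670, chromosome 2, 165393760 to 165400405). It was at 244, 152, 115 and 206 CPM with DMSO, 418, 392, 390.1 and 391 with olaparib, and 672, 191, 646 and 679 with MNA. As for Dcstamp, olaparib and DMSO did not overlap and MNA replicate 2 lay within DMSO. The rise with olaparib was 2.22-fold (log2 1.15 ± 0.33, adjusted p = 0.0252), lost on removal of DMSO 2 or 3 or any olaparib library (0.0507 to 0.0721). Its adjusted p was 9.42e-05 without MNA replicate 2 and 0.000362 in a fit of 2 groups alone. With MNA the rise was 3.05-fold (1.61 ± 0.34, adjusted p = 0.0142), kept when any library was left out, and 3.71-fold over MNA replicates 1, 3 and 4. Dcstamp and Ocstamp had a root mean square difference of 0.18, beside own spreads of 0.84 and 0.83. Of the controls, DMSO replicate 1 was highest and DMSO replicate 3 lowest for each. Of the 31-base words of Ocstamp's transcripts, 5.65% also occur in other genes, mostly AC160336.1.

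Atp6v0d2 encodes the d2 subunit of the V-ATPase, which also takes part in osteoclast fusion (ENSMUSG00000028238, chromosome 4, 19876841 to 19922605). Unlike the other fusion genes it fell. Its libraries held 1736, 1796, 1965 and 1935 CPM with DMSO, 1347, 1494, 1552 and 1473 with olaparib, and 1339, 1856, 1482 and 1365 with MNA. Olaparib and DMSO did not overlap, and the fall was 1.27-fold (log2 -0.34 ± 0.10, adjusted p = 0.0308), lost on removal of DMSO 2, 3 or 4 or olaparib 1, 2 or 4 (0.0533 to 0.0774). For olaparib the adjusted p was 0.000601 without MNA replicate 2 and 0.00114 in a fit of 2 groups alone. The fall with MNA was 1.23-fold (-0.30 ± 0.10, adjusted p = 0.0493) and lost its call when any library other than MNA replicate 2 was left out (0.0562 to 0.140). Without MNA replicate 2 it was 1.33-fold.

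Ctsk encodes cathepsin K, the protease that degrades bone collagen (ENSMUSG00000028111, chromosome 3, 95499256 to 95509362). Its levels were 267, 341, 381 and 329.7 CPM with DMSO and 148, 179.7, 233 and 156 with olaparib. In the MNA libraries it stood at 9.58, 187, 17.3 and 10.8 CPM. All 4 olaparib libraries lay below all DMSO libraries, and MNA replicates 1, 3 and 4 lay below every other library by a wide gap. The olaparib mean was 179 ± 38.6 CPM against 329.7 ± 47.1 with DMSO (SD, n = 4), a log2 fold change of -0.88 ± 0.76 that did not pass the test (adjusted p = 0.406). The standard error is that of a fit that holds MNA replicate 2, and without this library the value was -0.88 ± 0.17 (adjusted p = 0.000967). In a fit of olaparib and DMSO alone it was also called (adjusted p = 0.000315). The MNA mean was 56.2 ± 87.3 CPM over 4 libraries, a log2 fold change of -2.55 from DMSO, and 12.6 ± 4.16 CPM over the 3 without replicate 2, which is 26.2-fold lower. The call of Ctsk in this comparison was lost in 8 of the 12 fits that left out a library (adjusted p = 0.0510 to 0.0965). MNA replicate 2 was thus below DMSO for Ctsk although it lay inside the DMSO range, or below its lower end, for each of the 4 members that rose.

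Acp5 encodes tartrate-resistant acid phosphatase, the enzyme used to stain osteoclasts (ENSMUSG00000001348, chromosome 9, 22126727 to 22135711). It was measured at 307, 325, 366 and 392 CPM with DMSO, 262, 379, 520.4 and 496 with olaparib, and 257, 283, 361 and 367 with MNA. The 3 groups overlapped, and neither treatment passed the test (log2 0.25 ± 0.19, adjusted p = 0.343 for olaparib and -0.13 ± 0.19, adjusted p = 0.615 for MNA). In each group, replicates 1 and 2 lay below replicates 3 and 4. While Ctsk stood at 9.58 CPM in MNA replicate 1, Acp5 in that library was at 257 CPM. An exon overlap of 137 bases, 6.75% of Acp5's exon bases, with 6530413G14Rik on the opposite strand makes its count less certain, since the strand setting of the counting is not given in the sources used here.

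**Figure D3:**
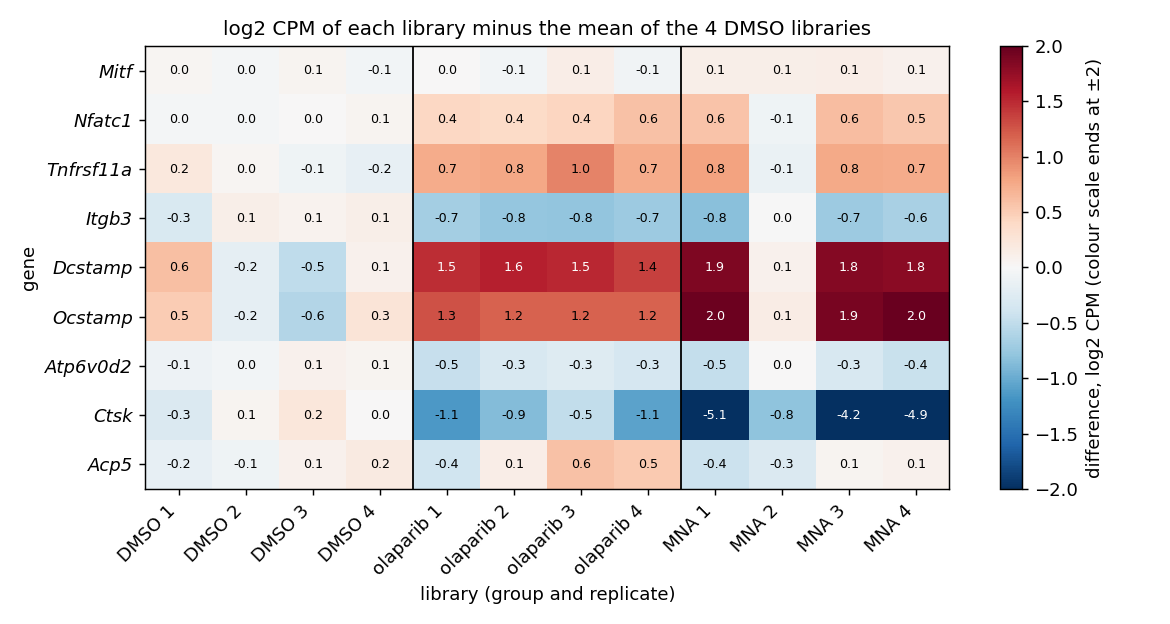
Log2 CPM of each gene (rows) in each library (columns) minus the mean of the 4 DMSO libraries, with the colour scale ending at 2 in either direction. In MNA replicates 1, 3 and 4, Ctsk is lower by 5.1, 4.2 and 4.9, whereas Acp5 differs by -0.4, 0.1 and 0.1.

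Olaparib and MNA were also compared with each other, which uses no DMSO library in the difference. In the fit of 12 libraries without a block, edgeR called none of the 9 members and gave none an unadjusted p under 0.05. It called 10.9% of tested genes higher with olaparib and 10.9% lower. DESeq2 also called none of the members, but it gave no p for Ctsk. Its unadjusted p for Acp5 was 0.0481. Ctsk was 3.18-fold higher with olaparib (log2 1.67 ± 0.78), and Ocstamp was lower (-0.46 ± 0.33, adjusted p = 0.349). Without MNA replicate 2, the olaparib libraries lay 14.2-fold above MNA for Ctsk, below it for Ocstamp (log2 -0.74) and below it for Dcstamp (-0.35), with no overlap for any of the 3. That is 1 member apart on the high side and 2 on the low side, where 23.5% and 22.8% of tested genes were, so neither share was above the background. Ocstamp was then also called (adjusted p = 0.00352). With the replicate number as a block, Acp5 was called (log2 0.36, adjusted p = 0.0373), and the value of Ctsk was 2.64 on the log2 scale. Ctsk is a description in this comparison too, since its low level with MNA was known. Without MNA replicate 2, Itgb3, Atp6v0d2 and Tnfrsf11a differed by -0.00, 0.07 and 0.04 on the log2 scale. Leaving out olaparib replicate 1 made Acp5 a call, at a log2 fold change of 0.55 (adjusted p = 0.0314).

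For each member, the genes whose profile over the 12 libraries was most alike were sought among 9746 tested genes averaging 100 counts or more, by the root mean square difference of centred log2 CPM. These libraries share their groups, and the values are a description. For Ctsk these were Gm14461 (0.42) and Npas2 (0.44). Such a difference depends on a member's own spread, a root mean square of 1.90 for Ctsk, 0.31 for Acp5 and 0.08 for Mitf. The differences are therefore not ranked between members. Atp6v0d2 was most like Atp6v1a (0.05), which encodes another V-ATPase subunit, and Bccip (0.05). Dcstamp was most like Osgin1 and Tmsb4x (0.16 each), and Ocstamp like St3gal5 (0.15) and Dcstamp (0.18). Nfatc1 had Pcca (0.04) and Mkrn1 (0.06), Tnfrsf11a had Prkcd (0.08) and Dhx58 (0.09), and Itgb3 had Pde4dip and Ankrd50 (0.09 each). Acp5 was nearest to Sdc1 (0.17) and Tgm2 (0.18), and Mitf to Ireb2 (0.04) and Gnb2 (0.05).

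Beyond the members, 82 genes of the same pathways were listed by function, and 76 passed the filter on low counts. With olaparib 17 of these were called higher and 8 lower, with MNA 14 and 13, and between olaparib and MNA 11 and 12. Of all tested genes, 14.3% and 12.8%, 16.3% and 12.3%, and 10.9% and 10.9% were called in these directions. The counts per list that follow stand beside the same shares, and nothing particular to a list is read from them. The median log2 fold changes were 0.03, 0.05 and -0.00, beside 0.00, 0.00 and -0.01 over all tested genes. Leaving out MNA replicate 2 raised the counts to 26 and 18, 25 and 21, and 21 and 23, while leaving out MNA replicate 3 gave 15 and 8, 4 and 0, and 7 and 6. Without DMSO replicate 2 or 3 the MNA counts were 7 and 2, without DMSO replicate 4 they were 8 and 3, and without MNA replicate 1 or 4 they were 7 and 0, and 5 and 0. The calls over all genes moved in parallel, for MNA from 3543 higher and 3499 lower without MNA replicate 2 to 408 and 55 without MNA replicate 3. Counts of genes called lower by MNA were 5 without DMSO replicate 1. Those called lower by olaparib were 5 on removal of DMSO 2, 3 or 4 or olaparib 2, and 4 without olaparib replicate 4. Between olaparib and MNA, leaving out olaparib replicate 3 gave 7 and 6, olaparib replicate 4 gave 6 and 7, and MNA replicate 4 gave 6 and 8.

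**Figure D4:**
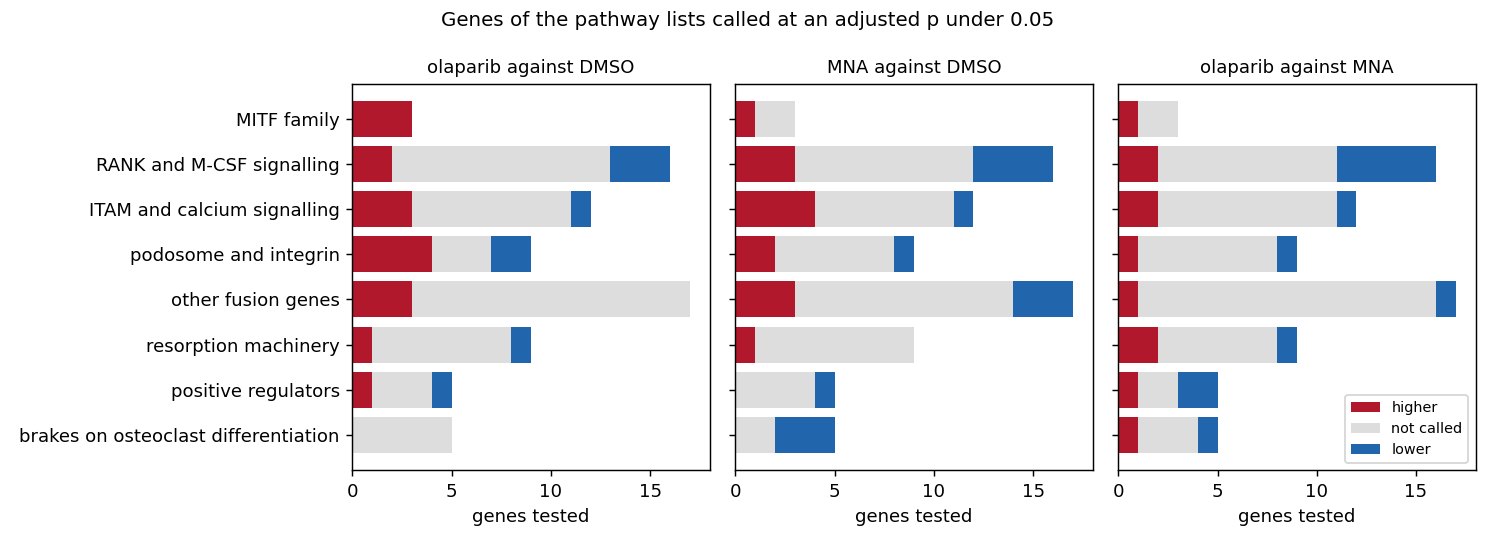
Number of tested genes (x axis) of 8 pathway lists (y axis) called higher, not called or called lower at an adjusted p under 0.05 in the 3 comparisons. The 3 relatives of Mitf are higher with olaparib, and 3 of 5 tested brakes on osteoclast differentiation are lower with MNA.

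Although Mitf did not pass the test, its 3 relatives were called higher with olaparib. Tfec, a family member largely restricted to macrophages and osteoclasts, rose from 25.8 ± 1.79 to 38.0 ± 3.95 CPM (adjusted p = 0.00764). Tfeb, a regulator of lysosomal genes, went from 60.8 ± 3.35 to 78.4 ± 7.75 CPM (adjusted p = 0.0381) and Tfe3 from 135 ± 6.01 to 156 ± 7.35 CPM (adjusted p = 0.0210). Tfeb was no longer called without any DMSO library or olaparib replicate 2, 3 or 4 (up to 0.105), and Tfe3 no longer on removal of DMSO 2, 3 or 4 or olaparib 3 (up to 0.0735). With MNA 1 of the 3 was called, Tfeb (log2 0.35, adjusted p = 0.0436), and that call was lost in 10 of the 12 fits that left out a library. Tfe3 was higher with olaparib than with MNA (log2 0.19, adjusted p = 0.0368, lost in 9 of these 12 fits).

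Of 16 tested genes of RANK and M-CSF signalling, 2 rose and 3 fell with olaparib, and 3 rose and 4 fell with MNA, beside 14.3% and 12.8%, and 16.3% and 12.3%, of all tested genes. Map3k7, which encodes the kinase TAK1, rose with olaparib from 66.4 ± 3.48 to 80.1 ± 1.34 CPM (adjusted p = 0.00848). The AP-1 gene Jun fell from 629 ± 58.0 to 365 ± 6.79 CPM (adjusted p = 0.0125) and Fosl2 from 196 ± 17.8 to 148 ± 16.9 (adjusted p = 0.0291), the latter lost in 6 of 12 fits without a library. With MNA, Csf1, the gene of M-CSF itself, rose from 18.6 ± 2.52 to 33.3 ± 7.09 CPM (adjusted p = 0.0142). Csf1r, its receptor, rose from 518 ± 81.6 to 1418 ± 639 CPM (adjusted p = 0.0153), which was lost on removal of MNA 3 or 4 (0.0504 and 0.0527), and 14.95% of the words of its transcripts also occur in other genes. Map3k14, the kinase NIK of the alternative NF-κB pathway, rose from 9.32 ± 0.883 to 18.1 ± 4.76 CPM (adjusted p = 0.0142). Between the treatments, Junb and Csf1 were lower with olaparib (log2 -0.43 and -0.56, adjusted p = 0.0127 and 0.0212) and Map3k7 was higher (0.22, adjusted p = 0.0242). The calls of Csf1 and Map3k7 were lost in 4 and 5 of 12 fits without a library, olaparib replicates 3 and 4 and MNA replicates 3 and 4 among them for each (up to 0.0670 and 0.0789).

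In the ITAM and calcium list, 3 of 12 tested genes rose and 1 fell with olaparib, and 4 rose and 1 fell with MNA, beside the same shares of all tested genes. Tyrobp, which encodes the adaptor DAP12, went from 244 ± 31.1 CPM with DMSO to 491 ± 13.4 with olaparib (adjusted p = 0.00476) and 400.0 ± 131 with MNA (adjusted p = 0.0265). Trem2, a receptor that signals through DAP12, rose with olaparib to 508 ± 21.9 from 379 ± 14.1 CPM (adjusted p = 0.00130) and was also higher than with MNA (log2 0.36, adjusted p = 0.00301). Btk, a kinase of the pathway, rose from 68.0 ± 4.85 to 84.1 ± 3.33 CPM with olaparib (adjusted p = 0.0106) and was above MNA (log2 0.27, adjusted p = 0.0220, lost on removal of olaparib 1 or 4 or MNA 3 or 4, up to 0.0798). Plcg2, a phospholipase, and Ppp3cb, a calcineurin subunit, rose with MNA (log2 0.51 and 0.33, adjusted p = 0.0214 and 0.0168), and Ppp3cb was lower with olaparib than with MNA (-0.35, adjusted p = 0.00794). The MNA call of Tyrobp was lost on removal of DMSO 2, 3 or 4 or MNA 1, 3 or 4 (up to 0.0842), that of Plcg2 on removal of DMSO 2 or 3 or MNA 1, 3 or 4 (up to 0.0674), and that of Ppp3cb without MNA replicate 3 (0.0572).

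Among 9 podosome and integrin genes, 4 rose and 2 fell with olaparib, and 2 rose and 1 fell with MNA. Fermt3, which encodes kindlin-3, an activator of integrins, rose with olaparib from 270 ± 15.6 to 341 ± 10.7 CPM (adjusted p = 0.00320) but fell with MNA to 235 ± 13.9 (adjusted p = 0.0342), and the difference between the treatments was called (log2 0.54, adjusted p = 0.000172). The fall was lost without any DMSO library, olaparib replicate 4 or MNA replicate 1, 3 or 4 (up to 0.110). Sh3pxd2a, the podosome scaffold TKS5, rose with olaparib (log2 0.72, adjusted p = 0.00463), and Tln1, or talin 1, fell (-0.48, adjusted p = 0.00770). With MNA, Gsn, the actin-severing gelsolin, rose from 179 ± 26.8 to 382 ± 136 CPM (adjusted p = 0.0147, lost without MNA replicate 3 or 4, 0.0507 and 0.0514), and Ptk2b, the kinase PYK2, from 103 ± 6.83 to 173 ± 44.3 CPM (adjusted p = 0.0142). Vav3, a guanine nucleotide exchange factor, was lower with olaparib than with MNA (log2 -0.47, adjusted p = 0.0149).

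Of 17 other fusion genes that were tested, 3 rose and none fell with olaparib by edgeR at an adjusted p under 0.05, while 6 had an unadjusted p under 0.05. They were Rac2, a GTPase of blood cells (220.3 ± 32.4 to 470.5 ± 18.8 CPM, adjusted p = 0.00864), and the tetraspanins Cd9 (403 ± 22.6 to 516 ± 24.7, adjusted p = 0.0103) and Cd81 (63.3 ± 17.2 to 107 ± 15.8, adjusted p = 0.0280). Cd81 lost its call in 6 of 12 fits without a library (up to 0.0794). Of the words of Cd9's transcripts, 20.1% also occur in other genes. Cd9 and Cd81 are known to restrain fusion in macrophages. With MNA 3 rose and 3 fell. Rac2 rose to 529 ± 197 CPM (adjusted p = 0.0142) and Cd44, a hyaluronan receptor, from 507 ± 45.7 to 705 ± 145 (adjusted p = 0.0247), whereas Tspan7, a tetraspanin, fell from 53.8 ± 16.7 to 19.7 ± 13.5 CPM (adjusted p = 0.0213), with a log2 fold change of -1.45 that went to -2.05 without MNA replicate 2. Cd44 lost its call in 6 and Tspan7 in 5 of the 12 fits (up to 0.0784 and 0.0685). Cdh1, or E-cadherin, which IL-4 induces in macrophages, was higher with olaparib than with MNA, at 186 ± 27.5 against 66.6 ± 49.6 CPM (adjusted p = 0.0120), and its log2 fold change went from 1.48 to 2.16 without MNA replicate 2. Rac1 was lower (log2 -0.18, adjusted p = 0.0377, lost in 10 of the 12 fits), but 51.3% of the words of its transcripts also occur in other genes.

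Of 9 tested genes of the resorption machinery, 1 was called higher and 1 lower with olaparib and 1 higher with MNA, where 6 had an unadjusted p under 0.05. For MNA the replicate block gave 2 higher and 3 lower, and leaving out MNA replicate 2 gave 2 and 4. Ostm1, the partner of the chloride channel ClC-7, rose 0.29 on the log2 scale with either treatment (adjusted p = 0.0475 and 0.0451), and each call was lost in 10 of 12 fits without a library (up to 0.121 and 0.129). Slc4a2, an anion exchanger, fell with olaparib from 63.0 ± 5.74 to 49.9 ± 5.66 CPM (adjusted p = 0.0169) and was also lower than with MNA (log2 -0.42, adjusted p = 0.00645), and 14.2% of its words also occur in other genes. Mmp14, a membrane metalloproteinase, was higher with olaparib than with MNA, at 7.57 ± 2.19 against 1.75 ± 1.91 CPM (adjusted p = 0.0182; log2 2.10, and 3.20 without MNA replicate 2), as was Clcn7 (log2 0.32, adjusted p = 0.0175). The call of Mmp14 was lost on removal of olaparib 4 or MNA 3 (up to 0.0538) and that of Clcn7 on removal of olaparib 2 or 3 or MNA 1 or 4 (up to 0.0578). The acid secretion genes Car2 and Tcirg1 did not pass the test, with log2 fold changes of -0.42 and -0.08 for olaparib and -0.59 and -0.04 for MNA.

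Of 5 tested brakes on osteoclast differentiation, 3 were called lower with MNA, where 12.3% of all tested genes were, and 0 higher. Both the replicate block and leaving out MNA replicate 2 gave 1 higher and 3 lower. With olaparib none was called by edgeR at an adjusted p under 0.05 and 1 had an unadjusted p under 0.05. Id2, an inhibitor of helix-loop-helix factors, fell with MNA from 301 ± 33.0 to 156 ± 74.8 CPM (adjusted p = 0.0202), against 305 ± 21.5 with olaparib, and the 2 treatments differed (log2 0.97, adjusted p = 0.0144). Bcl6, which encodes a repressor, fell with MNA by 0.76 on the log2 scale (adjusted p = 0.0487). The call of Id2 was lost on removal of DMSO 3 or MNA 1, 3 or 4 (up to 0.0658), and that of Bcl6 in 11 of 12 fits. Irf8, a factor of monocytes that restrains NFATc1, was lower with olaparib than with MNA, at 86.0 ± 9.39 against 130 ± 32.3 CPM (adjusted p = 0.0209, lost on removal of olaparib 1 or MNA 3 or 4, up to 0.0626).

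Of 5 positive regulators, 1 rose and 1 fell with olaparib and 1 fell with MNA. Prdm1, which encodes the repressor BLIMP1, fell with olaparib from 16.9 ± 1.36 to 11.7 ± 1.10 CPM (adjusted p = 0.00324) and was also below MNA (log2 -0.67, adjusted p = 0.000713). Esrra, a nuclear receptor of energy metabolism, rose from 48.8 ± 4.29 to 62.4 ± 4.14 CPM (adjusted p = 0.0117). Ppargc1b, a coactivator of mitochondrial genes, fell with MNA from 19.2 ± 1.598 to 12.9 ± 3.22 CPM (adjusted p = 0.0220, lost on removal of DMSO 2 or 4 or MNA 1, 3 or 4, up to 0.0717), while olaparib libraries averaged 23.9 ± 2.83, and the 2 treatments differed (log2 0.89, adjusted p = 0.00192). Myc was lower with olaparib than with MNA (-0.39, adjusted p = 0.0191, lost on removal of olaparib 3 or MNA 3, up to 0.0584).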

How the data were processed

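RNA-seq was done by the authors with stranded mRNA libraries and single-end reads, and the deposited values are raw read counts per Ensembl gene, not normalized, from STAR 2.5.2b on GRCm38.p5. The annotation was Ensembl's, and the submitters' processing notes also list DESeq2 and R 3.6.0. The strand column used is not given in the sources used here. No label gives a batch. Counts of the 12 libraries (21146291 to 31446849) entered 1 fit in R 4.3.3 with edgeR 4.0.16 (TMM, filterByExpr with a minimum count of 10 and total of 15, quasi-likelihood F test), which left 12849 of 35275 genes and no term for the replicate number. Calls were made at 0.05 after Benjamini-Hochberg adjustment, and p-values measure the spread between libraries. The paper's legend names 4 donor mice. After subtracting each group's mean, olaparib and DMSO libraries of 1 number correlated over genes (Pearson r of 0.227, 0.172, 0.225 and 0.408 for numbers 1 to 4). Libraries of different numbers were not compared in this way, so whether the numbers mark pairs was not tested. The main fit does not pair the libraries, and the replicate block was run as an alternative. Libraries of a group differed by more than sampling noise (chi-square per gene of 8.81 or more). Positions and exon lengths come from GENCODE vM21 (GRCm38), and promoters from RefSeq.

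The members and the lists were chosen with earlier results of these data known. Named genes were the members, up to 3 called genes with the smallest p per pathway list and comparison, and the 2 genes most like each member. Among the genes named outside this rule were Calcr, Oscar, Ly6g, Tnfsf11, Itgav, Car2 and Tcirg1. A list gene that this rule named is not reported here. The alternatives were DESeq2 1.42.0, RLE and upper-quartile normalization, no filter, a mean of at least 50 counts, 2 groups alone, the replicate block, an adjusted p under 0.01, and each library left out. Scripts ran in Python 3.11.15 and were tested on simulated data.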

Additional observations from a re-analysis of the deposited data

Results flagged for a closer look

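In 8 of the 27 sets of 4 libraries (9 genes in 3 groups), the highest or lowest library stood apart from the others. The gap was larger than a test for a stray value in 4 allows. For independent sets, chance gives about 1 in 20. These sets share the same 12 libraries, so their count is not compared with that rate. MNA replicate 2, which had been set apart before this test, was the stray library in 5 of the 8 sets. It was the highest for Ctsk at 187 CPM, and the lowest for Dcstamp at 198, Ocstamp at 191, Nfatc1 at 22.7 and Tnfrsf11a at 15.7 CPM. For Acp5, Mitf, Itgb3 and Atp6v0d2, MNA replicate 2 was not flagged by this test. It was still the highest MNA library for Itgb3, at 946 CPM against 531 to 605 in the others. The same held for Atp6v0d2, at 1856 against 1339 to 1482 CPM, and both values lay inside the DMSO range. The remaining 3 were Ocstamp in olaparib replicate 1, the highest at 418 CPM, Tnfrsf11a in olaparib replicate 3, the highest at 34.5 CPM, and Itgb3 in DMSO replicate 1, the lowest at 768 CPM. What sets MNA replicate 2 apart was not tested.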

How the results depend on the processing

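The lowest count of a member in any library was 233. Of 9 members, 6 were called for olaparib against DMSO, 7 for MNA against DMSO and 0 for olaparib against MNA. Counts of the comparisons with MNA include Ctsk wherever it was called, although it is a description there. At an adjusted p under 0.01 the members called numbered 3, 0 and 0, and in fits of 2 groups alone 7, 0 and 0. With 1 library left out, they ran from 3 to 7 for olaparib against DMSO, from 1 to 7 for MNA against DMSO and from 0 to 2 for olaparib against MNA, while calls over all genes for MNA against DMSO ran from 408 higher and 55 lower to 3543 and 3499. The replicate block gave 6, 7 and 2, the 2 being Acp5 (log2 0.36, adjusted p = 0.0373) and Ctsk (2.64), the latter a description, and changed no other call of a member. The block together with leaving out MNA replicate 2 gave 7, 7 and 3. Same-numbered MNA and DMSO libraries had an r of -0.00938 to 0.277, and olaparib and MNA libraries of 0.0696 to 0.392. Whether the numbers mark pairs in these comparisons was not tested either. The other normalizations, DESeq2 and the filters left each count within 1 of these, and DESeq2 gave no p for Ctsk. Signs turned only where the log2 difference in the main fit was near 0. For Mitf with olaparib against DMSO it was 0.01, and -0.0392 to 0.0304 over single libraries left out. Between olaparib and MNA, the main values were -0.08 for Dcstamp, -0.04 for Atp6v0d2 and 0.02 for Nfatc1. Dcstamp was 0.0271 with the replicate block and -0.354 to 0.0420 with libraries left out. Atp6v0d2 was -0.0987 to 0.0715 with libraries left out and 0.0739 with the block and no MNA replicate 2. Nfatc1 was likewise -0.124 to 0.0710, and -0.108. Its -0.124, without MNA replicate 2, lay farther from 0 than its main value. The cause was not tested.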
